A study of Homo sapiens with 4 samples.

Results

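The MAP kinase cascade and the dual-specificity phosphatases (DUSP) made up 69 of 17938 genes with a symbol whose transcripts were measured after MLL-AF9 knockdown in THP1 cells. Members were all genes that the array names as a numbered MAPK, MAP2K, MAP3K, MAP4K, MAPKAPK, RPS6KA or DUSP, 73 in all, each represented by its brightest probe. DUSP21, DUSP27, MAPK10 and RPS6KA6 were left out because their deposited quality weight was 0 on every array. The remaining members were 47 kinases and 22 phosphatases.

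In this cascade a MAP3K phosphorylates a MAP2K, which phosphorylates a MAP kinase, and MAP4K members act upstream of some MAP3K. The ERK branch relays mainly RAS and growth factor signals, and the JNK and p38 branches relay mainly stress, cytokine and Toll-like receptor signals in monocytic cells. Active MAP kinases switch on transcription factors and downstream kinases of the RPS6KA and MAPKAPK families. DUSP of the MAP kinase phosphatase (MKP) class remove the activating phosphates, and several of them are themselves transcribed in response to MAP kinase activity. The arrays measured transcripts, and phosphorylation or kinase activity was not measured.

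THP1 cells are a monocytic leukemia line in which MLL is fused to AF9. Knockdown cells received siRNA-A or siRNA-B, both directed against the fusion point of the THP1 transcript, and control cells received control siRNA-1 or control siRNA-2, which have no target. All cells were transfected on days 0, 3 and 6, kept in 10% serum that was lowered to 0.5% from day 6, and harvested on day 8. RNA of 5 experiments was pooled for each array, for 2 knockdown and 2 control arrays. All shared 1 slide, where positions 1 and 2 held siRNA-B and siRNA-A and positions 3 and 4 held control siRNA-1 and control siRNA-2, and an effect of slide position cannot be told apart from that of treatment. Values are log2 spot intensities without background correction or normalization between arrays, and their median was 8.56 with siRNA-A, 8.62 with siRNA-B, 8.58 with control siRNA-1 and 8.65 with control siRNA-2. In the same order, 71.2%, 70.0%, 74.3% and 74.3% of spots were well above background.

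The target of the siRNAs was checked first. No probe spans the fusion point, and a probe for MLL or for MLLT3, the gene of AF9, may read the fusion transcript as well as that of the single gene. The brighter MLLT3 probe read 6.82 with siRNA-A, 6.87 with siRNA-B, 7.59 with control siRNA-1 and 7.62 with control siRNA-2. Both MLLT3 probes were called lower after knockdown, with log2 fold changes of -0.76 (adjusted p = 0.0639 in limma) and -0.63 (adjusted p = 0.182 in limma). None of the 4 MLL probes was called. The brightest of them had the lowest fold change (-0.41, limma adjusted p = 0.403). It read 10.555 with siRNA-A and 10.643 with siRNA-B, below 10.948 and 11.075 in the controls. The remaining MLL probes had fold changes of -0.085, -0.027 and 0.048 with overlapping arrays. All 10 monocytic and myeloid marker genes with a probe were well above background on every array. Of the defining genes of other lineages, HBB, EPCAM and CDH1 were well above background on none, whereas all 5 T cell markers, the B cell marker CD79A, both megakaryocyte markers and 2 of 4 epithelial markers were well above background on every array. Of the monocytic and myeloid markers, CD14 (8.39 and 8.71 after knockdown, 7.52 and 7.47 in controls) and CSF1R were higher on both knockdown arrays than on both control arrays, ELANE (16.41 and 16.33 after knockdown, 16.82 and 16.87 in controls), MPO and CD68 were lower, and the others overlapped.

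Across the cascade 1 transcript of 69, that of MAP4K1, passed the threshold of an unadjusted p under 0.005 in limma, against 1.33% of all genes. It was higher after knockdown, a direction called for 0.630% of all genes, and no member was called lower, against 0.702%. An unadjusted p under 0.05 was reached by 9 members (13.0%), 6 higher and 3 lower, against 8.00% of all genes (3.26% higher, 4.74% lower). No member had an adjusted p under 0.05 in limma, where adjustment was over all 26219 probes. For 24 members the knockdown arrays did not overlap with the control arrays (34.8%), which held for 36.2% of all genes. They were above the controls for 16 members (23.2%) and below for 8 (11.6%), against 15.0% and 21.2% of all genes.

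Fold changes of the members, given here as log2 of knockdown over control, were small. They ranged from -0.44 to 0.45 on the log2 scale, with 38 above 0 and 31 below 0 and a median of 0.03, beside -0.02 over all genes. Without siRNA-B 25 were above and 44 below 0 (median -0.02), and without control siRNA-1 33 were above and 36 below (median -0.01). A fold change within 0.25 of 0 was found for 57 members (82.6%, beside 87.2% of all genes), and 0 members lay beyond 0.5. The 95% confidence interval lay within 1 log2 unit of 0 for all 69 members, against 98.7% of all genes, and within 0.5 for 47 of them (68.1%), against 80.6%. Knockdown by siRNA-A and by siRNA-B differed more between themselves than the controls did. The median gap between the knockdown arrays was 0.15 and that between the control arrays 0.10 for the members, beside 0.14 and 0.11 for all genes. Precision was limited by the number of arrays, since an exact two-sided permutation test of 2 against 2 cannot give a p below 0.333, and limma reached smaller values because it shares variance between probes. As each array was a pool, p-values measured the spread between pools that had received different siRNAs.

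**Figure D1:**
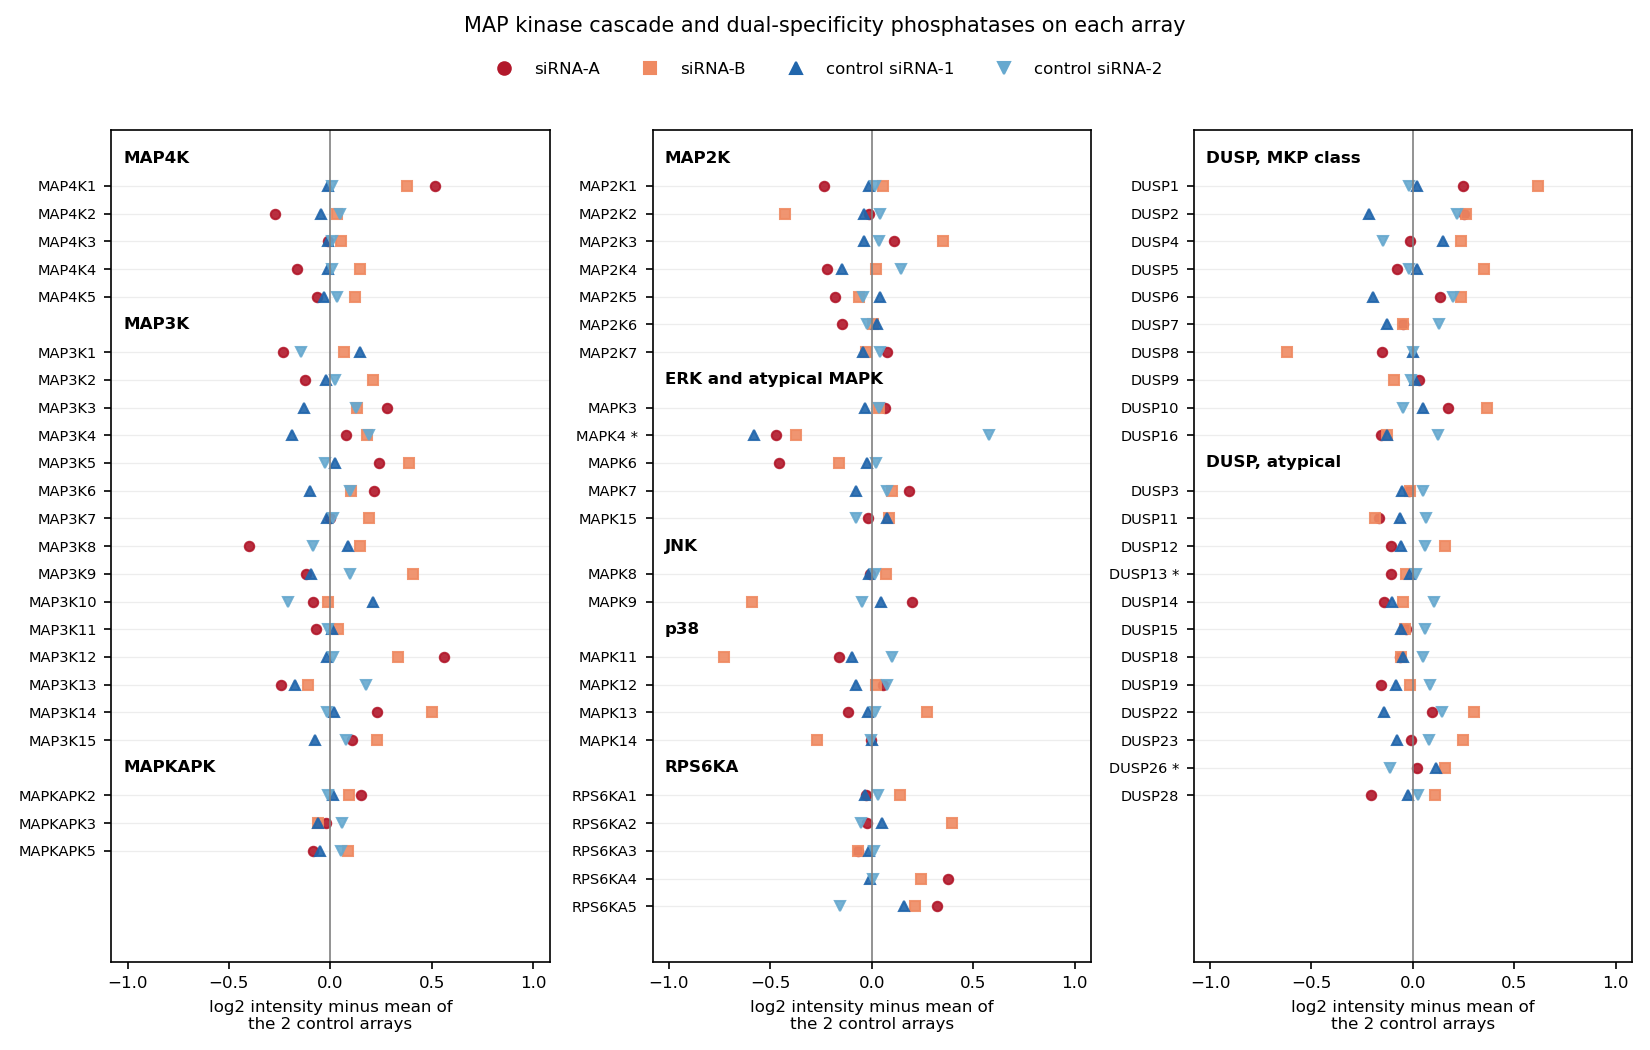
Log2 intensity of the members on each array, minus the mean of the 2 control arrays, grouped by role; an asterisk marks members that were well above background in both arrays of neither group. MAP4K1, MAP3K12, MAP3K14 and DUSP1 lie to the right of both controls with either siRNA, and MAPK9 shows the widest gap between siRNA-A and siRNA-B (0.79).

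MAP4K1 encodes hematopoietic progenitor kinase, a blood cell kinase that acts upstream of the JNK branch. Its log2 intensity was 9.56 with siRNA-A, 9.42 with siRNA-B, 9.04 with control siRNA-1 and 9.06 with control siRNA-2. Both knockdown arrays stood above both control arrays, and the gap between the groups exceeded the gap within either. MAP4K1 rose by 0.45 on the log2 scale, or 1.36-fold (± 0.11 SE, 95% confidence interval 0.19 to 0.70, limma adjusted p = 0.328), measured on a single probe at chromosome 19, positions 39087689 to 39087748 of build hg19. The direction was kept in all 16 alternative settings, with values of 0.38 to 0.53, but the call was lost in 7 of them, including the omission of any array (0.38 to 0.52). The other 4 MAP4K transcripts had fold changes of -0.12 to 0.03 with overlapping arrays, and none of them was called.

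MAP3K, the entry kinases of the cascade, were the largest group of kinases with 15 members. None was called, 3 had an unadjusted p under 0.05 in limma, all with positive fold changes, and 6 had both knockdown arrays above both control arrays while 0 had them below. Over all genes these shares were 8.00%, 15.0% and 21.2%. The median was 0.13, but without siRNA-B it was -0.004 and without control siRNA-2 0.24.

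MAP3K12, a kinase of the JNK route best known from neurons, came closest to the threshold. It read 7.15 with siRNA-A, 6.92 with siRNA-B, 6.57 with control siRNA-1 and 6.60 with control siRNA-2. Its fold change of 0.45 was as large as that of MAP4K1, with a slightly wider standard error of 0.12 (adjusted p = 0.382 in limma), and it passed the threshold in 4 of the 16 alternative settings, all on the same intensities. MAP3K14, the NF-kB inducing kinase of the noncanonical NF-kB pathway, read 8.24 with siRNA-A and 8.51 with siRNA-B, and 8.02 and 7.99 in the controls. Both knockdown values were again above both control values (fold change 0.37 ± 0.13 SE, limma adjusted p = 0.520), and without siRNA-B the fold change was 0.23. MAP3K5, the oxidative stress sensor ASK1, read 10.79 and 10.94 after knockdown and 10.58 and 10.53 in controls (fold change 0.31 ± 0.11 SE, limma adjusted p = 0.544). A further probe for MAP3K5 had a fold change of 0.21 with the same order of groups. None of these 3 transcripts met the call threshold.

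MAP3K8, the kinase TPL2 that links Toll-like receptors to the ERK branch in monocytes, gave a contrasting picture. It read 8.06 with siRNA-A and 8.61 with siRNA-B, on either side of 8.55 and 8.37 in the controls. The siRNAs thus disagreed, and the fold change of -0.13 (± 0.18 SE, limma adjusted p = 0.903) became 0.15 without siRNA-A.

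At the MAP2K tier 0 of 7 transcripts were called, and the fold changes ran from -0.22 to 0.23. MAP2K1, which encodes the ERK kinase MEK1, read 11.34 and 11.63 after knockdown and 11.56 and 11.59 in controls. Its arrays overlapped (fold change -0.09 ± 0.13 SE). MAP2K2, which encodes MEK2, read 11.68 with siRNA-A but 11.26 with siRNA-B, beside 11.65 and 11.73 in controls. The fold change of -0.22 (± 0.15 SE, limma adjusted p = 0.778) therefore rested on siRNA-B, and without it was -0.01. MAP2K3, an activator of p38, had both knockdown arrays above both control arrays at a fold change of 0.23 (adjusted p = 0.714 in limma), and its 2 further probes gave 0.11 and 0.05.

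The MAP kinases themselves were measured as 6 ERK and atypical, 2 JNK and 4 p38 transcripts, and 0 of these 12 were called in limma. MAPK3, which encodes ERK1, read 7.97 and 7.93 after knockdown and 7.86 and 7.93 in controls (fold change 0.05 ± 0.11 SE). These arrays overlapped, and the upper 95% confidence limit of the fold change was 0.30. MAPK6, which encodes the atypical and short-lived kinase ERK3, was among the 3 members with negative fold changes at an unadjusted p under 0.05. It read 13.15 and 13.44 after knockdown and 13.58 and 13.63 in controls (fold change -0.31 ± 0.13 SE, limma adjusted p = 0.606). This value was -0.16 without siRNA-A and -0.46 without siRNA-B. Its further probe had the same order of groups with a fold change of -0.24.

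Among stress kinases, MAPK11, which encodes p38 beta, had the most negative fold change of all members. Its intensity was 8.21 with siRNA-A, 7.65 with siRNA-B, 8.27 with control siRNA-1 and 8.47 with control siRNA-2. The fold change of -0.44 (± 0.18 SE, limma adjusted p = 0.597) came mostly from siRNA-B and was -0.16 without it. The further probe for MAPK11 gave -0.25, again with its lowest value with siRNA-B. MAPK14, which encodes the main p38 kinase p38 alpha, read 9.89 and 9.62 after knockdown and 9.89 in either control, so that siRNA-A matched the controls.

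The JNK transcripts showed how far the siRNAs could part. MAPK9, which encodes JNK2, read 10.37 with siRNA-A and 9.58 with siRNA-B, beside 10.22 and 10.12 in controls. This gap of 0.79 was the widest of all members between the knockdown arrays, against 0.10 between the control arrays. The fold change of -0.19 (± 0.22 SE, limma adjusted p = 0.878) accordingly became 0.20 without siRNA-B. On the further MAPK9 probe the order was the other way, with 8.90 with siRNA-A and 9.17 with siRNA-B. MAPK8, which encodes JNK1, lay between 7.83 and 7.91 on all arrays.

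**Figure D2:**
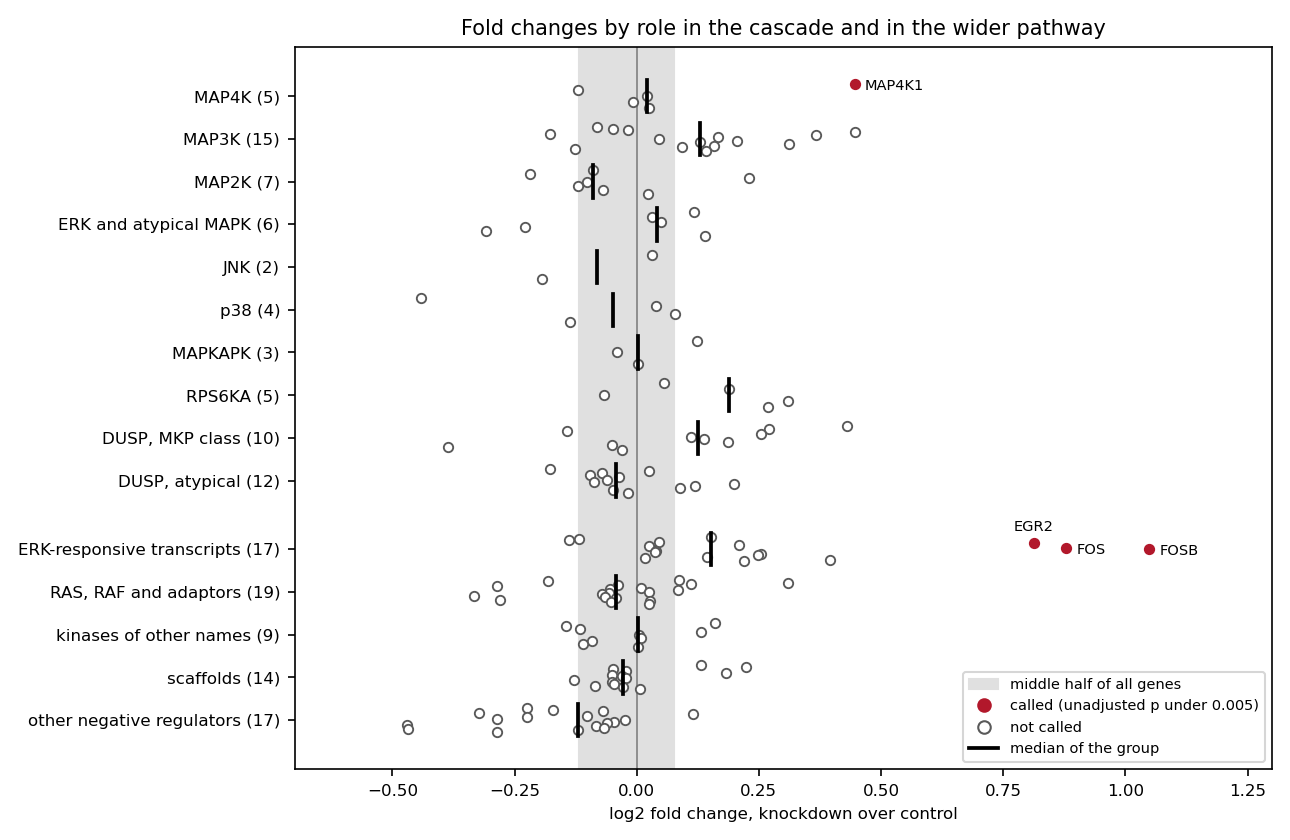
Log2 fold changes, knockdown over control, of members by role and of pathway genes outside the families, with the number of genes in parentheses; bars mark medians and the shaded band spans the quartiles of all genes (-0.12 to 0.08). The called genes, MAP4K1, EGR2, FOS and FOSB, are filled.

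Downstream of the MAP kinases, 0 of 3 MAPKAPK and 0 of 5 RPS6KA transcripts were called in limma. RPS6KA4, which encodes the nuclear kinase MSK2 that phosphorylates the transcription factor CREB and histone H3, had an unadjusted p under 0.05. It read 10.70 with siRNA-A, 10.57 with siRNA-B, 10.32 with control siRNA-1 and 10.33 with control siRNA-2. Knockdown and control arrays were clearly apart, although the fold change was small (0.31 ± 0.11 SE, limma adjusted p = 0.537). RPS6KA5, which encodes the related MSK1, had the same order of groups with a fold change of 0.27 (± 0.13 SE, limma adjusted p = 0.687). Its further, dimmer probe gave 0.09 with overlapping arrays. RPS6KA1 and RPS6KA3, which encode the ribosomal S6 kinases RSK1 and RSK2 that ERK activates, had fold changes of 0.06 and -0.07. Their further probes had the opposite sign, with -0.04 for RPS6KA1 and 0.06 for RPS6KA3. MAPKAPK2, a p38 target that stabilizes cytokine transcripts, read 11.98 and 11.92 after knockdown and 11.84 and 11.82 in controls. These groups did not overlap, yet the fold change was 0.12 (± 0.11 SE, limma adjusted p = 0.832). MAPKAPK3 had a fold change of -0.04, which was positive in 6 of 16 alternative settings.

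The phosphatases were divided into the MKP class and the atypical DUSP. Of 10 MKP transcripts 0 were called in limma, 2 had an unadjusted p under 0.05, 6 had positive fold changes and the median was 0.12, between 0.01 without siRNA-B and 0.24 without siRNA-A. Of 12 atypical DUSP 0 were called and 0 had an unadjusted p under 0.05, with fold changes of -0.18 to 0.20.

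DUSP1, the immediate early phosphatase that ends p38 and JNK activity in monocytes and macrophages, read 6.46 with siRNA-A, 6.83 with siRNA-B, 6.23 with control siRNA-1 and 6.19 with control siRNA-2. The siRNA-B array was highest, and siRNA-A lay between it and the controls. On the mean of its spots DUSP1 was not called (fold change 0.43 ± 0.14 SE, limma adjusted p = 0.490), with 0.24 without siRNA-B and 0.62, which was called, without siRNA-A. Its probe was printed on 10 identical spots, all 10 of which had a positive fold change, from 0.29 to 0.61 (mean 0.43, SD 0.09). Taken singly, 2 of the spots had an unadjusted p under 0.005 in limma. Identical spots share the RNA of the same 4 pools and so measured the precision of the array, not the spread between experiments. The probe for MAPK3 was printed on 10 spots as well, of which 7 had a positive fold change (mean 0.05, SD 0.07).

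**Figure D3:**
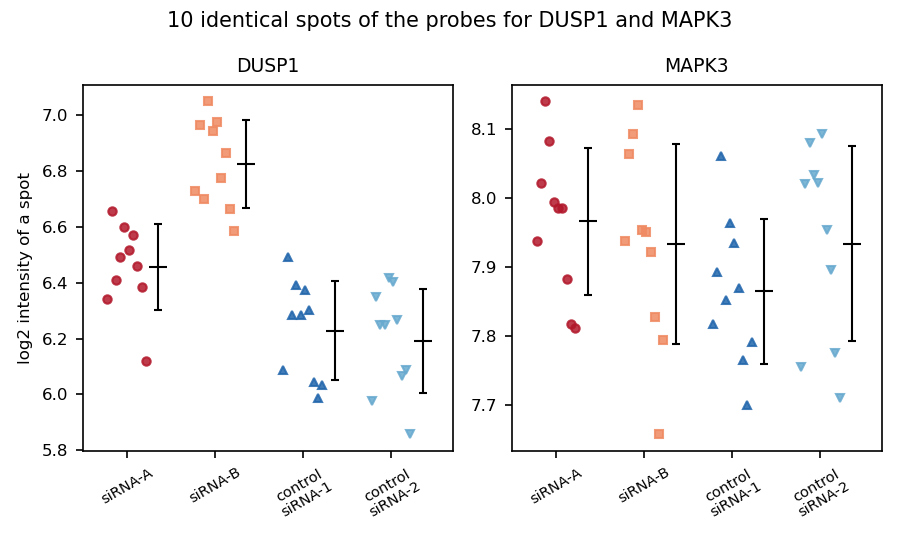
Log2 intensity of the 10 identical spots of the DUSP1 and MAPK3 probes on each array, with mean and SD over spots. For DUSP1 the spots with siRNA-B are centred on 6.83 and those with the control siRNAs on 6.23 and 6.19, whereas for MAPK3 the 4 arrays overlap widely.

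DUSP2, DUSP4, DUSP5 and DUSP6 are phosphatases whose transcripts are known to follow ERK activity. DUSP6, the cytoplasmic ERK phosphatase, read 12.17 and 12.27 after knockdown and 11.83 and 12.23 in controls. Control siRNA-2 thus lay within the range of the knockdown arrays, and the fold change of 0.19 (± 0.15 SE, limma adjusted p = 0.812) was -0.01 without control siRNA-1. DUSP2, a nuclear phosphatase of activated leukocytes, read 8.994 and 9.004 after knockdown and 8.53 and 8.96 in controls. Both knockdown arrays were above both controls, but control siRNA-2 nearly reached them (fold change 0.26 ± 0.15 SE, limma adjusted p = 0.745). Without control siRNA-1 the value fell to 0.04, and without control siRNA-2 it was 0.47. DUSP4 and DUSP5, both nuclear, had overlapping arrays and fold changes of 0.11 and 0.14. DUSP10, which acts on JNK and p38, read 8.03 and 8.22 after knockdown and 7.90 and 7.80 in controls, without overlap (fold change 0.27 ± 0.12 SE, limma adjusted p = 0.624, 0.17 without siRNA-B).

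DUSP8, a phosphatase of JNK and p38, was the only member of the MKP class with a negative fold change and an unadjusted p under 0.05. Its brightest probe read 10.83 with siRNA-A, 10.36 with siRNA-B and 10.98 in either control (fold change -0.39 ± 0.16 SE, limma adjusted p = 0.596). Without siRNA-A the fold change was -0.62 and was called, and without siRNA-B it was -0.15. The 2 further DUSP8 probes had fold changes of -0.02 and 0.12, so that the probes disagreed. DUSP16, which acts on JNK, was well above background in both control arrays and in neither knockdown array. The arrays overlapped, as siRNA-B and control siRNA-1 both read 5.555, and no fold change is given.

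Several members were measured by more than 1 probe, and these did not always move together. Of 25 further probes for 21 members, 11 had a fold change of the opposite sign to the brightest probe, and 1 was called. The called probe was for MAPK15, the atypical kinase ERK8. It read 5.74 and 5.71 in the knockdown arrays and 5.21 and 5.09 in the control arrays, and exceeded the background limit with either siRNA against the fusion but with neither control siRNA. Over these 4 arrays, without background correction, the signal was at least 1.47-fold higher after knockdown (adjusted p = 0.182 in limma), a bound that takes, on each array, the higher of the measured value and the dimmest signal well above background. Other processing kept the call in 6 of 6 settings, but it was lost on omission of any array. The fitted log2 difference was 0.337 with normexp background correction and quantile normalization together and 2.224 after background subtraction with scaling. On omission of single arrays it was 0.518 to 0.64. Some of these values lay below the bound (0.558 on the log2 scale). No exact fold change is given because neither control array was well above background. The brightest MAPK15 probe read 6.56 and 6.66 after knockdown and 6.65 and 6.50 in controls, with overlap and a fold change of 0.03 (± 0.12 SE, limma adjusted p = 0.977). Which transcripts either probe detects was not tested.

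Nearly all members were detected. In 64 of 69, signals were well above background on all arrays. Apart from DUSP16, the exceptions were DUSP19, an atypical DUSP detected in both control arrays and neither knockdown array, and MAPK4, DUSP13 and DUSP26, which were detected in 1 control array each. DUSP19 read 5.248 with siRNA-A and 5.392 with siRNA-B, beside 5.322 and 5.492 in controls. DUSP26 read 5.492 and 5.629 after knockdown, beside 5.585 and 5.358 in controls. For both genes the arrays overlapped, so that detection in controls alone did not show a lower signal after knockdown. MAPK4, an atypical MAP kinase, read 4.81 and 4.91 after knockdown and 4.70 with control siRNA-1 but 5.86 with control siRNA-2. A single control array thus stood apart, and no fold change is given.

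Genes of the wider pathway were taken from lists chosen with earlier results of these data known, and 76 of their genes were measured. Of these 3 (3.95%) were called in limma, all higher, against 1.33% of all genes, and 10 (13.2%) had an unadjusted p under 0.05, 4 higher and 6 lower, against 8.00%. The 3 called genes, FOSB, FOS and EGR2, encode transcription factors of the immediate early response. The paper that reported these arrays had already named all 3 as changed after knockdown. Their calls, and shares that include them, are therefore not independent of the choice of genes. All 3 belong to the list of 17 transcripts that follow ERK activity. In that list 15 fold changes (88.2%) were positive, against 43.8% over all genes, and the median was 0.15, or 0.01 without siRNA-B and 0.37 without siRNA-A. Without siRNA-B 9 of the 17 were positive, and with either control array left out 12 were. Of its transcripts that were not called, PHLDA1 (fold change 0.40 ± 0.12 SE, limma adjusted p = 0.472), ETV4 (0.21) and ZFP36 (0.22) had both knockdown arrays above both control arrays, whereas the arrays of the other 11 overlapped, among them EGR1 (0.05 ± 0.22 SE) and MYC (0.02 ± 0.14 SE). BTG2, also among these 11, read 10.25 with siRNA-A and 11.52 with siRNA-B, on either side of both controls. Its fold change of -0.12 became -0.75, the opposite direction to the called genes, without siRNA-B.

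FOSB read 7.54 with siRNA-A, 7.98 with siRNA-B, 6.79 with control siRNA-1 and 6.63 with control siRNA-2, and rose by 1.05 (± 0.16 SE, limma adjusted p = 0.0708). FOS read 11.35 and 11.83 after knockdown and 10.85 and 10.57 in controls, and rose by 0.88 (± 0.17 SE, limma adjusted p = 0.182). EGR2 read 8.79 and 8.93 after knockdown and 7.77 and 8.32 in controls, and rose by 0.81 (± 0.17 SE, limma adjusted p = 0.229), or 0.54 without control siRNA-1. All 3 genes kept their direction in 16 alternative settings, and lost the call in 4 (FOSB) or 6 (FOS and EGR2) of them. With the background-subtracted signal scaled to its 75th percentile, none of the 76 genes was called, although the fold changes were 1.21 for FOSB, 0.88 for FOS and 0.93 for EGR2. As in DUSP1, siRNA-B gave the highest value of each.

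Among other negative regulators of the pathway, such as Sprouty proteins, RAS GTPase activators and further phosphatases, 16 of 17 fold changes were negative, beside 56.2% of all genes. None was called in limma, 5 had an unadjusted p under 0.05, all with negative fold changes, and the median was -0.12. Only 15 of the 17 genes were well above background on all arrays. The counts include SPRED3, among the 16 and the 5, and PTPRR, among the 16. Both were well above background on neither knockdown array, so that the size of their fold changes was not measurable. Without siRNA-A 10 of 17 were negative and the median was -0.05, whereas without siRNA-B 16 were negative and it was -0.27. PPM1D, a p53-induced phosphatase of p38, had a fold change of -0.32 (± 0.11 SE, limma adjusted p = 0.514). SPRY4, an inhibitor of RAS signalling to ERK, had a fold change of -0.47 (± 0.21 SE) with siRNA-B level with control siRNA-2 (6.94 each). SPRED3, a further 1 of the 5, was well above background on 1 control array and neither knockdown array, so that its fold change was not measurable; it was the 1 gene of this list called without control siRNA-2. These 3 genes were chosen after their values were seen. In the remaining lists none was called: the medians were -0.04 for 19 RAS, RAF and adaptor genes, 0.00 for 9 related kinases of other names and -0.03 for 14 scaffold genes. The unadjusted p was under 0.05 for 1, 0 and 0 of them.

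**Figure D4:**
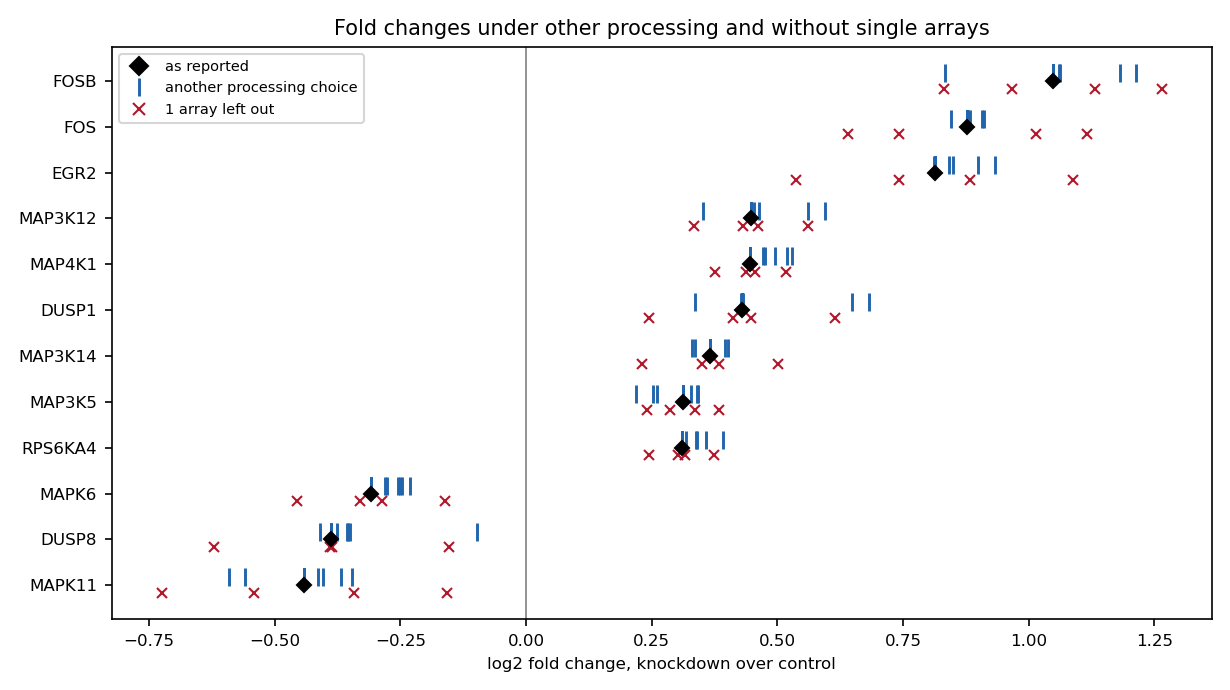
Log2 fold changes of the 9 members with an unadjusted p under 0.05 and of the 3 called genes outside the families, as reported, under other processing choices and with 1 array left out. Every value keeps its sign, and DUSP1 spans 0.24 (without siRNA-B) to 0.68.

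Promoter sequence was examined for the members, and single windows are shown only for genes with positive fold changes. RefSeq promoters were matched by symbol for 59 of the 69 members, as 84 windows of the 250 bases before a transcription start (build GRCh38.p14). The motifs were sought on both strands: the cyclic AMP response element CRE (TGACGTCA), its short form TGACG, which is also part of CRE, the AP-1 element (TGANTCA) and the CArG box. CRE was found in 3 member windows (3.57%), those of DUSP1, DUSP8 and MAP3K13, beside 1.65% of all 35116 windows. The short form was found in 21 of 84 member windows, beside 21.2% of all windows, AP-1 in 3.57%, beside 6.57%, and the CArG box in 1.19%, beside 1.16%. The windows of MAP4K1, MAP3K12, MAP3K14 and MAP3K5 held none of these letters. Of the 3 members with negative fold changes and an unadjusted p under 0.05 in limma, DUSP8 and MAPK6, but not MAPK11, were among those with a match. DUSP8 had CRE and the short form, and MAPK6 had the short form. Matches were thus not confined to members with positive fold changes.

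Shown are the windows of DUSP1 and RPS6KA4, the members with a match among those with positive fold changes and an unadjusted p under 0.05, and of FOS and FOSB, with motif matches in capitals. The windows are chr5:172771196-172771445 (minus strand) for DUSP1, chr11:64358912-64359161 (plus strand) for RPS6KA4, chr14:75278578-75278827 (plus strand) for FOS and chr19:45467746-45467995 (plus strand) for FOSB.
DUSP1: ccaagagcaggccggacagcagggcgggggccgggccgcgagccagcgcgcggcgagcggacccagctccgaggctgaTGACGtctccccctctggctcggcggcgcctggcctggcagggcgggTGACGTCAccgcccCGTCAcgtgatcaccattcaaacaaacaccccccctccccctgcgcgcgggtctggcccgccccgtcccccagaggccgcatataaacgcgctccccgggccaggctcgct
RPS6KA4: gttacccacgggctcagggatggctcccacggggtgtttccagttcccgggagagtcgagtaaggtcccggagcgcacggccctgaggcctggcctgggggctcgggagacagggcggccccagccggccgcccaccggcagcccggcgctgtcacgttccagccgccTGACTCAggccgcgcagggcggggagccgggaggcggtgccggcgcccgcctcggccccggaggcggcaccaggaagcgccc
FOS: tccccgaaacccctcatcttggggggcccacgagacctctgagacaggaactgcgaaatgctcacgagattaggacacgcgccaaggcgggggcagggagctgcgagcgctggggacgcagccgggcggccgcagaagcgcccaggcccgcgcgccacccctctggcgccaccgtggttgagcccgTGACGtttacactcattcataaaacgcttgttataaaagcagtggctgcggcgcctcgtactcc
FOSB: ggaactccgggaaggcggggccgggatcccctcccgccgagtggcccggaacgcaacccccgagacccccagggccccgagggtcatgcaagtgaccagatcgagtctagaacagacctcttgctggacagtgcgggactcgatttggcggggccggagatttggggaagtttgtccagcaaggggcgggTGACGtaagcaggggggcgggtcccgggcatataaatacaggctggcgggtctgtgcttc
The DUSP1 window held 1 CRE, which ended 117 bases before the start, and 4 matches to the short form, counting those within CRE. The windows of FOS and FOSB held 1 short form each, 59 and 55 bases before the start, and that of RPS6KA4 held 1 AP-1 element. Of 3 EGR2 windows, 1 held 2 short forms and a CArG box. A match describes letters in the window, and binding at these positions was not tested.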

How the data were processed

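Total RNA pools of knockdown and control cells were hybridized to single-colour Agilent arrays. The authors read the spots with Agilent Feature Extraction 10.5.1.1 and deposited an intensity per spot, equal to the median pixel signal in 100% of spots, without background correction or normalization. The authors also deposited a quality score per spot as a weight of 0, 0.5 or 1, and how it was set is not given in the sources used here. The scanner tables hold a background-subtracted signal, which served as an alternative.

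Of 43118 spots other than controls, 9795 with a weight of 0 on every array were left out, and 33323 spots on 26219 probes were analysed. Identical spots were averaged, and their log2 values entered a two-sided limma fit (limma 3.58.1, R 4.3.3) that used the weights and no covariates. Calls were made at an unadjusted p under 0.005, beside Benjamini-Hochberg adjusted p over all probes. The fit was tested on simulated data. Genes are represented by their brightest probe. Named genes are members with an unadjusted p under 0.05, the 5 members each with the largest rise and fall among those detected in both knockdown or both control arrays, a fixed core of the cascade, and called genes outside the families; others were named after their values were seen. Members and lists were chosen with earlier results of these data known. Of 69 members 68 were matched to RefSeq by accession and 1, MAPK8, was not; DUSP13, which was matched, has another current symbol (DUSP13A). The alternatives were other signals, normalizations, weights, filters, variance models, probes and thresholds, and the omission of each array. Some single genes are not reported here, and counts include them.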

Additional observations from a re-analysis of the deposited data

How the results depend on the processing

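The 31 named genes gave 496 values under 16 alternatives, of which 437 kept their direction and their side of the threshold, 23 lost and 16 gained a call, and 20, of 11 genes, changed direction. The number of members called was 2 with normexp correction and quantile normalization together (MAP3K5 joined MAP4K1), and 2 with only probes well above background, with an intensity trend or with the mean of all probes (MAP3K12 joined). It was 3 on single spots with a further criterion over identical spots (DUSP1, MAP3K12, MAP4K1), 0 at an adjusted p under 0.05 in limma, 9 at an unadjusted p under 0.05, and 0 to 2 without single arrays (0.284% to 0.942% of all genes, and 0.797% to 1.70% in settings with all arrays and the same threshold). With the background-subtracted signal the member called was DUSP19, which was not well above background after knockdown. Without control siRNA-1 it was MAPK4, likewise not well above background after knockdown, and without siRNA-A DUSP1 (0.62) and DUSP8 (-0.62). Members without overlap numbered 22 to 33 in settings with all arrays (36.4% to 41.8% of all genes) and 42 to 52 without single arrays (61.6% to 71.5%), where fewer arrays were compared. The median of members was 0.0539 with quantile and 0.0547 with cyclic loess normalization, and -0.0209 to 0.0889 without single arrays. Of genes outside the families, background-subtracted signals gave 0 calls when scaled and 1 when unscaled, with 0 at an adjusted p under 0.05 in limma, 10 at an unadjusted p under 0.05, and 0 to 2 without single arrays.

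Fold changes that changed direction with all arrays in use were those of MAPKAPK3 (0.096 after background subtraction and scaling and 0.063 without scaling, 0.010 with quantile and 0.019 with cyclic loess normalization, 0.032 with normexp and quantile together), MAPK15 (-0.024 after background subtraction without scaling, -0.008 with normexp and quantile together) and RPS6KA3 (0.013 after background subtraction and scaling). Without single arrays the direction changed for DUSP4 (-0.036 to 0.258), DUSP5 (-0.076 to 0.353), DUSP6 (-0.013 to 0.385), MAP2K1 (-0.237 to 0.057), MAP3K8 (-0.400 to 0.146), MAPK15 (-0.045 to 0.107), MAPK8 (-0.008 to 0.072), MAPK9 (-0.589 to 0.200), MAPKAPK3 (-0.099 to 0.018) and RPS6KA1 (-0.026 to 0.138). The causes were not tested. The fits without an array assume that the spread of the remaining pair holds for the group with 1 array. DUSP1 had 0.68 after background subtraction with scaling and 0.65 without, but 0.34 with normexp and quantile together.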
